A study of Mus musculus with 7 samples.

Results

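The comparison set the colon epithelium of mice 7 days after the end of DSS treatment against that of mice 3 days after it. DSS (dextran sulfate sodium) is a sulfated polysaccharide that damages the colon lining when given in drinking water and causes colitis. The members were the 2 of the 7 RNA sequencing libraries whose titles give DSS treatment and these days. Of the 18036 genes listed in any library, the 13528 with at least 10 reads summed over the pair were used.

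Both groups were female hCYP1A mice of the C57BL/6 strain, 6 weeks old, which carry human CYP1A genes in place of their own. Both received 1.5% DSS for 5 days and no other agent. The day 7 tissue is labelled partial colitis and the day 3 tissue colitis. The other libraries were 1 untreated control, 1 from day 1 after DSS, and 3 from mice that had first received PhIP, a carcinogen of well-done meat, in 2 doses of 100 mg/kg, and then the same DSS course. Each library pooled RNA of 3 mice, and the epithelium was scraped off the muscle layer, so cells of the lamina propria can be included. There was 1 library per side and therefore no replicate check. All differences are descriptions of these pools, with no test, and the counting intervals given cover counting error only.

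After DSS the colon passes from acute injury, with neutrophils, macrophages and secreted defence proteins, to repair, in which epithelial cells spread over denuded areas and crypts regrow. Interferon-gamma from lymphocytes induces antigen presentation genes and antimicrobial guanosine triphosphatases in the epithelium. Heat shock chaperones refold damaged proteins and are induced by heat shock factor 1. Regenerating islet-derived (Reg3) lectins are secreted against bacteria and are induced by interleukin-22 through STAT3.

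The day 7 library held 8256557 unique reads and the day 3 library 8781886, within the 7664276 to 8781886 of the 7 libraries, and 16016 and 15955 genes had at least 1 read. Epithelial genes were among the most abundant. Lypd8, a glycoprotein gene of the colonocyte surface, stood at 17798 RPKM on day 7 and 13825 on day 3 (RPKM, reads scaled to gene length in kilobases and to library size). Zg16, a goblet cell lectin, stood at 5916 RPKM on day 7 and 7612 on day 3. Actb, the keratin gene Krt8 and the translation factor gene Eef1a1 filled the next places on day 7, with 3371, 3302 and 2660 RPKM. The libraries also held RNA of genes listed as markers of other cells. The summed RPKM of 21 neutrophil markers was 933 on day 7 and 1735 on day 3. Of it, S100a8 and S100a9 supplied 154 and 236 RPKM on day 7, and 416 and 583 on day 3. The summed RPKM of 20 macrophage and monocyte markers was 1317 on day 7 and 1406 on day 3. Of the macrophage sum on day 7, Adgre1, Csf1r, C1qa and Ly6c2 supplied only 1.90, 8.47, 10.5 and 5.40 RPKM, and other listed genes the rest. The cell source of those genes was not tested. In such bulk tissue fewer cells of a type and less RNA per cell cannot be told apart.

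Of the 13528 genes, 413 (3.05%) were at least 2-fold higher on day 7 and 293 (2.17%) at least 2-fold lower. The ratio of day 7 over day 3 was above 1 for 6522 genes (48.2%) and below 1 for 7006 (51.8%). The median log2 ratio of day 7 over day 3 was -0.01, the median absolute log2 ratio 0.19, and the 5th and 95th percentiles were -0.66 and 0.75. These are the background against which the counts of gene groups below can be read. The 12 lowest ratios among genes with at least 5 RPKM in 1 of the 2 libraries were those of Reg3b, Reg3g, Chil3, Ifitm6, Lcn2, Mmp8, Ngp, Hspa1b, Hspa1a, Tfrc, Saa3 and Hsph1, and the 12 highest those of Klk15, S100g, Clu, Ppbp, Ctsk, Mptx1, Hoxd11, Ubd, Hoxd10, Prss23, Ephb6 and Pamr1.

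**Figure D1:**
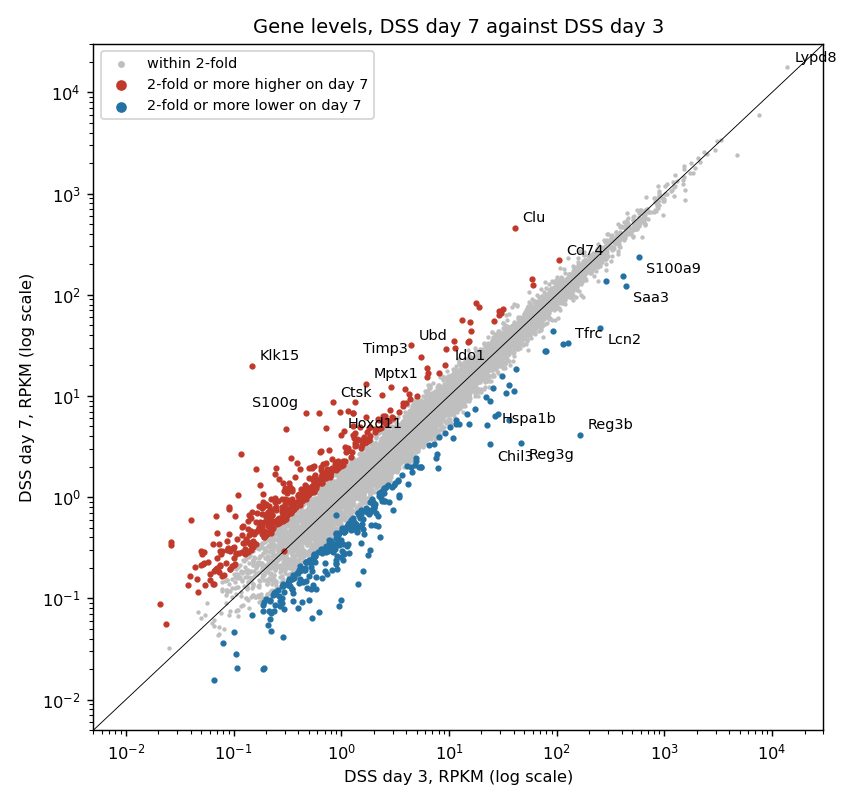
RPKM of each gene used with reads in both libraries, with the DSS day 7 library on the vertical axis and the DSS day 3 library on the horizontal axis, both on log scales. Red points are at least 2-fold higher on day 7 and blue points at least 2-fold lower, by reads scaled to the library total, so a few genes whose stated length differs between the libraries lie off their colour's band, and the line marks equal levels. Reg3b lies at 4.15 RPKM on day 7 and 165.6 on day 3, and Clu at 460.1 RPKM on day 7 and 41.4 on day 3.

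The antimicrobial genes gave the lowest ratios of the comparison. Reg3b (gene ID 18489, chromosome 6, 78370885 to 78373466, RefSeq positions on GRCm38.p6) had 26 reads on day 7 and 1104 on day 3. That is 4.15 RPKM on day 7 against 165.6 on day 3, a ratio of 0.0250 (95% counting interval 0.0163 to 0.0369) and a log2 ratio of -5.32. The day 7 level was still above that of the untreated control, at 1.72 RPKM (10 reads), and far under day 1, at 39.99. Its neighbour Reg3g, which encodes a related lectin, had 3.44 RPKM on day 7 and 47.1 on day 3 (log2 ratio -3.77).

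The 300 bases around the Reg3b start are shown because it is the gene with the lowest ratio and its family is known for STAT3 control. The sequence is RefSeq's GRCm38.p6 plus strand, chr6:78370635-78370934, from 250 bases before the start to 50 after it. Capitals mark the single match to the STAT core TTCNNNGAA, sought on both strands, which begins 129 bases before the start.
Reg3b promoter: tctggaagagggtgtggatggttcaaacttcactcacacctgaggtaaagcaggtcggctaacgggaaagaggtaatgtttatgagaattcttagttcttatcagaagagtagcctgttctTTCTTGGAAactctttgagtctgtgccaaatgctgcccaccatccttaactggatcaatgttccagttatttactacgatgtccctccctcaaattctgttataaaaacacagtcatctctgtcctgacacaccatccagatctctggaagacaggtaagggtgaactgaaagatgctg
The core occurs in 2726 of 32851 RefSeq promoter windows of this length (8.30%), and none was found in the Reg3g window. A match describes letters and not a binding site.

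Other members of the antimicrobial list divided. Of its 22 genes, 21 were used: 9 were higher and 12 lower on day 7 (median log2 ratio -0.16), with 1 at least 2-fold higher and 5 at least 2-fold lower. Lcn2, which encodes lipocalin 2, a protein that withholds iron carriers from bacteria, had 46.9 RPKM on day 7 and 253 on day 3 (ratio 0.185, interval 0.164 to 0.208). Saa3, a serum amyloid A of inflamed tissue, had 121.8 RPKM on day 7 and 441.5 on day 3 (log2 ratio -1.86). Lrg1, a secreted glycoprotein gene of the acute phase, had 32.5 RPKM on day 7 and 113 on day 3 (log2 ratio -1.80). These 3 stayed further above the control than Reg3b did, with 0.76, 1.72 and 0.19 RPKM there in the same order. The summed neutrophil markers moved with them, at 933 RPKM on day 7 and 1735 on day 3, and their part in the result was not tested.

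The related serum amyloid genes Saa1 and Saa2 did not share the low ratio of Saa3. Saa1 had 1293 RPKM on day 7 and 1192 on day 3, and 1283 in the control. The hydrogen peroxide-producing oxidase gene Duox2 (104 RPKM on day 7, 85.6 on day 3) and the antibody transporter gene Pigr (1514 RPKM on day 7, 1266 on day 3) were a little higher on day 7. Retnlb, a goblet cell protein active against bacteria, was among the most abundant genes, with 2426 RPKM on day 7 and 4683 on day 3 (log2 ratio -0.95). The list's 1 member at least 2-fold higher was Ang4, an antimicrobial ribonuclease with near-identical relatives, at 34.7 RPKM on day 7 and 11.1 on day 3, against 178 in the control.

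Neutrophil markers were lower on day 7 in 17 of the 19 genes used (of 21 listed), with a median log2 ratio of -0.77, and 7 of them at least 2-fold lower. S100a8 and S100a9 encode the subunits of calprotectin, the main cytosolic protein of neutrophils. S100a8 had 154 RPKM on day 7 and 416 on day 3 (ratio 0.371, interval 0.335 to 0.411). S100a9 had 236 RPKM on day 7 and 583 on day 3 (log2 ratio -1.31). Both were far above the control, where S100a8 had 0.33 RPKM and S100a9 0.80.

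The granule genes Mmp8 and Ngp were among the 12 lowest ratios, whereas Mmp9 and Ltf, given below, were not. Mmp8, neutrophil collagenase, had 5.18 RPKM on day 7 and 22.5 on day 3 (log2 ratio -2.12), and Ngp, neutrophilic granule protein, 6.69 RPKM on day 7 and 28.3 on day 3 (log2 ratio -2.08). Chil3, a chitinase-like protein of myeloid cells that stands in the macrophage list, had 3.32 RPKM on day 7 and 23.8 on day 3 (log2 ratio -2.84). Ifitm6, an interferon-induced transmembrane gene of myeloid cells, had 5.82 RPKM on day 7 and 35.99 on day 3 (log2 ratio -2.63). Receptor genes ranged widely. Csf3r, the granulocyte colony-stimulating factor receptor, had 11.4 RPKM on day 7 and 13.2 on day 3 (log2 ratio -0.20). The receptor gene Cxcr2 had a log2 ratio of -0.63. Il1r2, a receptor of interleukin-1, had 5.25 RPKM on day 7 and 15.2 on day 3 (log2 ratio -1.54). The gelatinase gene Mmp9 had 14.03 RPKM on day 7 and 16.7 on day 3. Ltf, lactoferrin, ran the other way, with 7.38 RPKM on day 7 and 4.61 on day 3. Camp, with 2 reads on day 7 and 6 on day 3, was under the read minimum, and Ly6g was not analysed here.

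Acute inflammatory mediators were lower on day 7 in 17 of the 19 used of 24 listed (median log2 ratio -0.33), but only 2 by 2-fold or more. Il1b, interleukin-1 beta, had 101 RPKM on day 7 and 127 on day 3, against 1.28 in the control. The neutrophil attractant Cxcl2 had 23.04 RPKM on day 7 and 27.2 on day 3, and the inducible nitric oxide synthase Nos2 65.5 RPKM on day 7 and 84.8 on day 3. The 2 with the lowest ratios rested on few reads: Il17a had 3 reads on day 7 and 9 on day 3 (ratio 0.355, interval 0.0617 to 1.42), and Ccl2 had 6 reads on day 7 and 13 on day 3. Of these, Il1b, Cxcl2 and Nos2 were higher on day 7 than in the control and lower than on day 3, as were S100a8 and S100a9.

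Macrophage and monocyte markers were close to even, with 7 higher and 12 lower of 19 used (median log2 ratio -0.04). The lowest of them was Chil3, given above with the myeloid genes. The complement subunit genes of resident macrophages C1qa, C1qb and C1qc had log2 ratios of 0.41, 0.47 and 0.58. The mannose receptor gene Mrc1 had 2.37 RPKM on day 7 and 1.198 on day 3. Ly6c2, a surface gene of newly arrived monocytes, had 5.40 RPKM on day 7 and 9.37 on day 3. C3, the central complement protein, had 12.1 RPKM on day 7 and 25.6 on day 3, whereas C2, a component of its convertase, had 5.96 RPKM on day 7 and 2.20 on day 3.

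**Figure D2:**
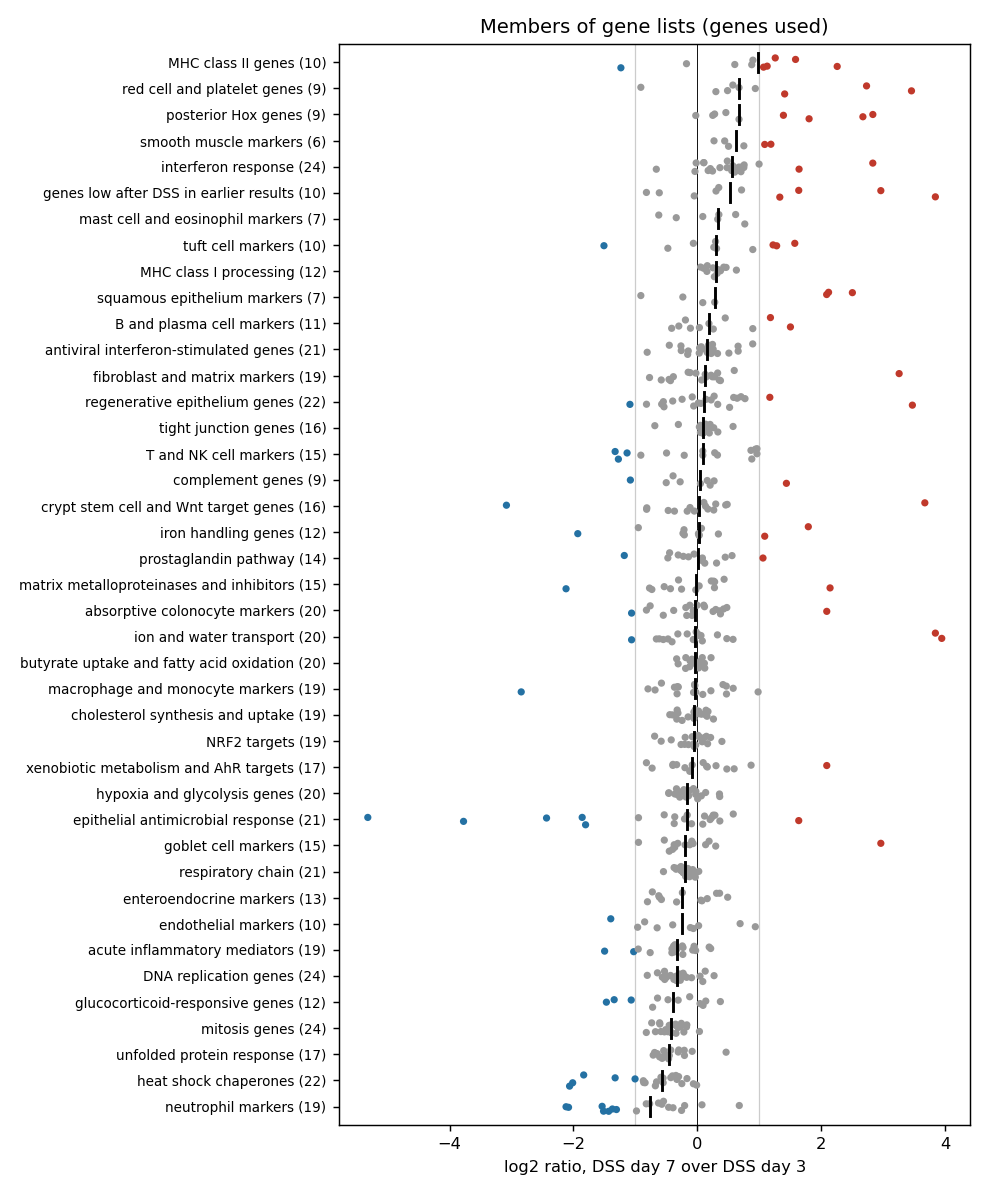
Log2 ratio of DSS day 7 over DSS day 3 for members of gene lists with at least 6 genes used (number in brackets), sorted by the list median, which is the black bar. Red points are at least 2-fold higher on day 7 and blue points at least 2-fold lower. The medians run from -0.77 for neutrophil markers at the bottom to 0.98 for MHC class II genes at the top.

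Heat shock chaperone genes were lower on day 7 in all 22 genes of the list (median log2 ratio -0.57), 5 of them by 2-fold or more. The list was chosen after these values had been seen and so only describes the pattern. Hspa1b and Hspa1a, stress-inducible Hsp70 genes whose near-identical copies make the split of unique reads uncertain, had the lowest ratios. Hspa1b (gene ID 15511) had 6.38 RPKM on day 7 and 26.6 on day 3 (ratio 0.240, interval 0.199 to 0.287). Hspa1a (gene ID 193740) had 1.95 RPKM on day 7 and 7.85 on day 3. Hsph1, a nucleotide exchange factor of Hsp70, had 11.2 RPKM on day 7 and 39.8 on day 3 (ratio 0.281, interval 0.247 to 0.317). The 3 genes stood at 1.95, 0.61 and 6.53 RPKM in the control and at 40.2, 17.9 and 38.6 RPKM on day 1, so that day 3 was close to or under day 1.

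Other chaperones were lower by smaller ratios. Hspa8, the constitutive Hsp70, had 858 RPKM on day 7 and 1537 on day 3, with 749 in the control. Hsp90aa1, the inducible Hsp90, had 96.0 RPKM on day 7 and 174.8 on day 3 (log2 ratio -0.86). Chordc1, an Hsp90 co-chaperone, had 15.6 RPKM on day 7 and 31.3 on day 3 (ratio 0.498). Mitochondrial chaperones were also lower, with log2 ratios of -0.55 for Hspd1 and -0.66 for Hspe1. At the other end Hspa4 (-0.01) and the co-chaperone Bag3 (-0.06) were nearly even. Cryab, a small heat shock protein, had 3 reads on day 7 and 8 on day 3 (ratio 0.399, interval 0.0682 to 1.66).

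Promoter windows of 3 of these genes are shown because the genes were low together and share the core of the heat shock element. They are RefSeq's GRCm38.p6 sequences, from 250 bases before the start to 50 after it, read in the direction of transcription. Hsph1 has 2 annotated starts, of which the first is shown. The Hspa1b window is chr17:34959189-34959488 on the minus strand, the Hsph1 window chr5:149636287-149636586 on the minus strand and the Chordc1 window chr9:18292017-18292316 on the plus strand. Capitals mark matches to GAANNTTC, sought on both strands.
Hspa1b promoter: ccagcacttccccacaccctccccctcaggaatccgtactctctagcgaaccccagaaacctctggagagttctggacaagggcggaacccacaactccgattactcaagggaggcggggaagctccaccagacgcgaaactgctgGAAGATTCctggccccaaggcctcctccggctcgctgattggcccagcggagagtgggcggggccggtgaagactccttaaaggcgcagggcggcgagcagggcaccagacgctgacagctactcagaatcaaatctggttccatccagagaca
Hsph1 promoter: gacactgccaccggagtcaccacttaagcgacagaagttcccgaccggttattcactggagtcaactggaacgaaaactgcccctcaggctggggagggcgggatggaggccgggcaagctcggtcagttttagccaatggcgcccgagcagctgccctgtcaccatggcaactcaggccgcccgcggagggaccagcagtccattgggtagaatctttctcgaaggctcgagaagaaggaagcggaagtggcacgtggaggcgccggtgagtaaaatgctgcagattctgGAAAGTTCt
Chordc1 promoter: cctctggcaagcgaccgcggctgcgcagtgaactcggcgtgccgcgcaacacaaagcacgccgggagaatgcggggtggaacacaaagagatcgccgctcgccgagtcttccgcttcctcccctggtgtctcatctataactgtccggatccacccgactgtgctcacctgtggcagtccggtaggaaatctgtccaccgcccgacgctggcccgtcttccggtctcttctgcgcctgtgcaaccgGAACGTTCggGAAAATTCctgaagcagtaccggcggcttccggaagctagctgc
The match begins at base -104 in Hspa1b, at 42 in Hsph1 and at -4 and 7 in Chordc1, counted from the start. The Hspa1a window is identical to that of Hspa1b at 296 of 300 bases. At least 1 match was found for 11 of the 17 chaperone genes with a window (64.7%), for 754 of 10763 genes used in the comparison (7.01%), and in 2582 of all 32851 windows (7.86%). Genes without a match, such as Dnajb1 (log2 ratio -0.33) and Stip1 (-0.55), were lower as well. Some genes with a match, such as Bag3 (-0.06) and Cct2 (-0.25), differed little. Here too a match describes letters and not a binding site, and a link to the ratios was not tested.

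**Figure D3:**
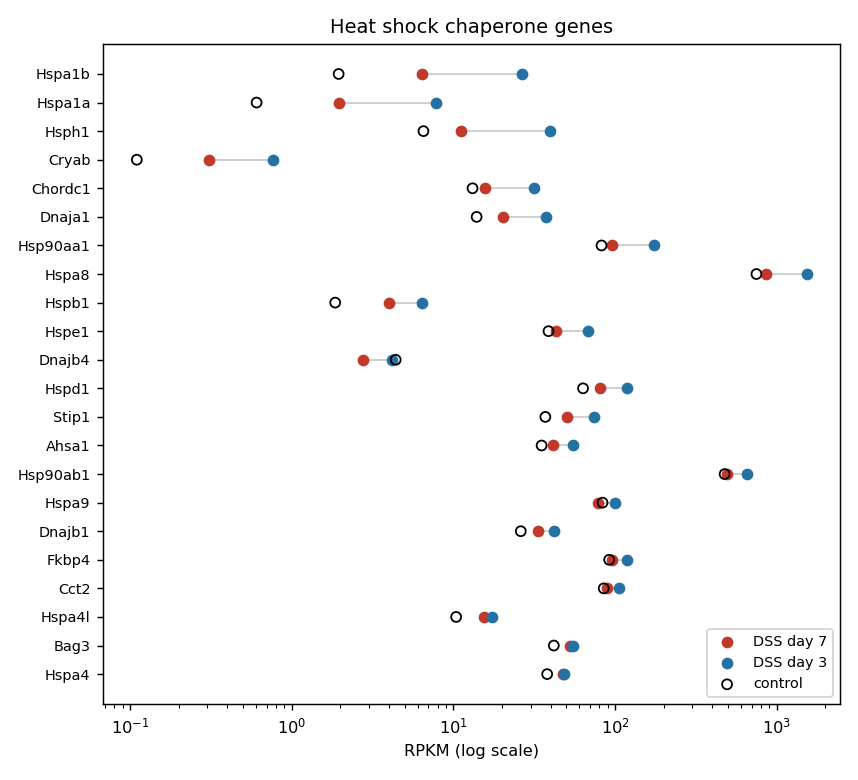
RPKM of the 22 heat shock chaperone genes on a log scale, in the DSS day 7 library (red), the DSS day 3 library (blue) and the untreated control (open circles), sorted by the ratio of day 7 over day 3. Every red point lies left of its blue point, and the gap narrows from Hspa1b (6.38 and 26.6 RPKM) to Hspa4 (48.0 and 48.3 RPKM).

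The unfolded protein response, which raises chaperones of the endoplasmic reticulum, was lower in 16 of 17 genes (median log2 ratio -0.46), none by 2-fold. Hspa5, its main chaperone, had 177 RPKM on day 7 and 285 on day 3. Creld2, a secreted stress protein, had 24.8 RPKM on day 7 and 40.6 on day 3. The exception was Ddit3, a transcription factor of prolonged stress, with 8.40 RPKM on day 7 and 6.09 on day 3.

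Tfrc, the transferrin receptor through which cells take up iron, had 33.4 RPKM on day 7 and 127 on day 3 (ratio 0.263, interval 0.247 to 0.279). Its level was 32.2 RPKM in the control and 132 on day 1. Day 7 and the control thus lay together, as did days 1 and 3. The heme and folate transporter gene Slc46a1 ran the other way, with 53.9 RPKM on day 7 and 15.6 on day 3, and 44.5 in the control. The other iron genes were mostly even, and the ferritin heavy chain gene Fth1 had 1600 RPKM on day 7 and 1849 on day 3. Of the 14 iron genes, a list also chosen after its values were seen, 12 were used, 7 higher and 5 lower.

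Fkbp5, a glucocorticoid-induced regulator of the glucocorticoid receptor, had 28.0 RPKM on day 7 and 77.4 on day 3 (ratio 0.362, interval 0.335 to 0.390), against 21.1 in the control. In a list of 12 glucocorticoid-responsive genes, likewise chosen after the values were seen, 4 were higher and 8 lower (median log2 ratio -0.39). The metallothionein genes Mt1 and Mt2, which bind zinc and copper, had log2 ratios of -0.72 and -1.07. Dusp1, a phosphatase of the list, had 36.1 RPKM on day 7 and 27.9 on day 3, so the list did not go one way.

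Cell cycle genes were lower in small steps. Of 24 mitosis genes 23 were lower on day 7 (median log2 ratio -0.42), and of 24 DNA replication genes 20 (median -0.33), with none in either list past 2-fold. Top2a, topoisomerase II, had 20.5 RPKM on day 7 and 32.8 on day 3 (ratio 0.626, interval 0.576 to 0.681). Rrm2, a subunit of ribonucleotide reductase, had 9.91 RPKM on day 7 and 17.3 on day 3, with 4.39 in the control and 25.5 on day 1. Mki67, a marker of cycling cells, had 26.2 RPKM on day 7 and 29.6 on day 3, under the 36.8 of the control. The crypt stem cell gene Lgr5 had 1.44 RPKM on day 7 and 2.54 on day 3, and 8 of the 16 stem cell and Wnt target genes used were higher and 8 lower.

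Interferon response genes were higher on day 7 in 21 of 24 (median log2 ratio 0.56), 2 of them by 2-fold or more. Ubd, a ubiquitin-like modifier induced by interferon-gamma, had 31.7 RPKM on day 7 and 4.45 on day 3 (ratio 7.13, interval 5.03 to 10.4). Ido1, which degrades tryptophan, had 29.1 RPKM on day 7 and 9.30 on day 3 (ratio 3.12, interval 2.55 to 3.85). The guanylate-binding protein gene Gbp2 had 80.3 RPKM on day 7 and 40.2 on day 3, just under 2-fold. All 3 were above the control, at 3.72, 3.94 and 20.9 RPKM. The chemokine genes of the list did not go with them: Cxcl9 had 7.30 RPKM on day 7 and 7.49 on day 3, and Cxcl10 13.9 RPKM on day 7 and 22.1 on day 3. Ifng itself had 7 reads in each library.

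MHC class II genes, which present peptides to helper T cells, had the highest median of the lists with at least 6 genes used, 0.98, with 8 of 10 higher and 5 at least 2-fold higher. Cd74, the invariant chain, had 219 RPKM on day 7 and 104 on day 3 (ratio 2.10, interval 1.96 to 2.25), and 112 in the control. H2-Aa had 66.6 RPKM on day 7 and 30.5 on day 3. Ciita, the transcriptional master regulator of class II genes, had 2.17 RPKM on day 7 and 0.72 on day 3 (ratio 3.00, interval 2.01 to 4.58), and 1.27 in the control. H2-DMb2 rested on 9 reads on day 7 and 2 on day 3 (ratio 4.79, interval 0.991 to 45.5), and H2-Oa was lower with 4 reads on day 7 and 10 on day 3. The H2 genes of the list are close relatives, and reads shared between them could not be assigned.

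MHC class I processing genes were higher in all 12, but none by 2-fold (median log2 ratio 0.30). B2m, the light chain, had 1181 RPKM on day 7 and 878 on day 3. Genes that respond to type I interferon were less shifted, with 15 of 21 higher and a median of 0.16. Isg15 had 37.2 RPKM on day 7 and 35.6 on day 3, and Ifitm3, which blocks viral entry, 58.7 RPKM on day 7 and 102.8 on day 3.

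Markers of lymphocytes were present at low levels. The summed RPKM of 12 B and plasma cell markers was 49.1 on day 7 and 29.7 on day 3, with 7 of 11 used higher (median log2 ratio 0.19). Jchain, the joining chain of secreted antibodies, supplied 34.2 RPKM of it on day 7 and 15.1 on day 3. Of 19 T and NK cell markers 15 were used, 9 higher and 6 lower (median 0.09), with summed RPKM of 25.4 on day 7 and 18.8 on day 3. Ccl5, a chemokine gene, supplied 9.41 RPKM of the T and NK sum on day 7 and 5.11 on day 3. Cd3e, part of the T cell receptor complex, had 11 reads in each library, and Klrd1 had 0 reads in both. Among the lower ones, Cd4 had 11 reads on day 7 and 22 on day 3, and Cd2 had 7 on day 7 and 18 on day 3. The counting intervals of both ratios include 1. Macrophage sums are given above, and the part of these cells in the class II result was not tested.

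**Figure D4:**
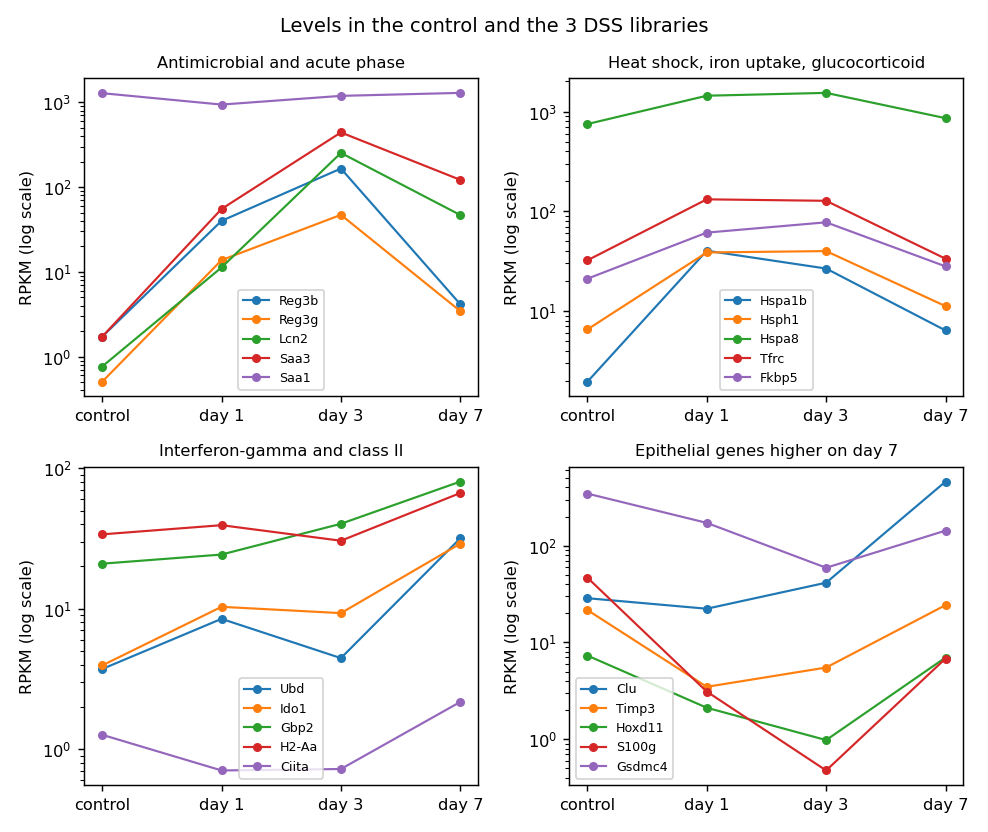
RPKM on log scales in the untreated control and on days 1, 3 and 7 after DSS, with 1 library per point and 5 genes per panel. Reg3b, Hspa1b and Tfrc fall back toward the control level on day 7, Lcn2 (46.9 RPKM) stays above its control level of 0.76, and Ubd and Ido1 are highest on day 7.

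Clu, which encodes clusterin, an extracellular chaperone known as a marker of revival stem cells in mouse gut, was the most abundant of the 12 genes with the highest ratios. Clu (gene ID 12759, chromosome 14, 65968483 to 65981548 on GRCm38.p6) had 6868 reads on day 7 and 658 on day 3. That is 460.1 RPKM on day 7 and 41.4 on day 3, a ratio of 11.1 (interval 10.3 to 12.04). It stood at 28.7 RPKM in the control and 22.3 on day 1, so day 7 was alone high. The other regenerative epithelium genes did not go with it as a group: of 22 genes 13 were higher and 9 lower (median log2 ratio 0.10). Ly6a, a surface marker of the regenerating epithelium also known as Sca-1, had 692 RPKM on day 7 and 820.5 on day 3, with 196 in the control. Ly6d had 138 RPKM on day 7 and 244 on day 3. Ccn2, a target of the YAP pathway, had 3.61 RPKM on day 7 and 1.601 on day 3.

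Klk15, a kallikrein-related peptidase gene, had the highest ratio of the named genes. It had 126 reads on day 7 and 1 read on day 3, a ratio of 134 with an interval of 23.6 to 5335. Its level was 19.9 RPKM on day 7 and 0.15 on day 3, 10.9 in the control and 0 on day 1. Timp3, a matrix-bound inhibitor of metalloproteinases, had 24.3 RPKM on day 7 and 5.50 on day 3 (ratio 4.42, interval 3.82 to 5.13), and 21.6 in the control. Prss23, a serine protease gene, had 7.10 RPKM on day 7 and 1.17 on day 3, and 27.4 in the control. Ephb6, an ephrin receptor without kinase activity, had 6.86 RPKM on day 7 and 1.27 on day 3. Pamr1, a gene of a secreted peptidase-like protein, had 6.75 RPKM on day 7 and 1.28 on day 3. These 5 were all lower on day 3 than in the control.

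Posterior Hox genes, which mark the distal gut, were higher on day 7 in 8 of 9 used (median log2 ratio 0.67), 4 of them by 2-fold or more. The 4 were all of the Hoxd cluster on chromosome 2. Hoxd11 had 6.98 RPKM on day 7 and 0.98 on day 3 (ratio 7.13, interval 4.96 to 10.6), and 7.32 in the control. Hoxd10 had 8.64 RPKM on day 7 and 1.35 on day 3 (ratio 6.38, interval 4.04 to 10.5), and 9.66 in the control. Hoxd13 had 29.7 RPKM on day 7 and 11.3 on day 3, and 50.6 in the control. Hoxd12 rested on 23 reads on day 7 and 7 on day 3. The genes of other clusters were closer to even, with log2 ratios of 0.25 for Hoxb13, 0.28 for Hoxa13 and -0.02 for Hoxa11.

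A pair of genes known for calcium uptake had high ratios. S100g, which encodes the calcium-binding protein calbindin-D9k, had 27 reads on day 7 and 2 on day 3 (ratio 14.4, interval 3.61 to 125). Trpv6, the apical calcium channel, had 116 reads on day 7 and 8 on day 3 (ratio 15.4, interval 7.57 to 36.6). In RPKM, S100g stood at 6.81 on day 7 and 0.47 on day 3, against 46.8 in the control, and Trpv6 at 4.77 on day 7 and 0.31 on day 3, against 3.28 in the control. Both are known targets of the vitamin D receptor, whose gene Vdr had 77.5 RPKM on day 7 and 64.2 on day 3. A list of 6 vitamin D genes, chosen after the values were seen, includes Vdr itself. Of these 4 were used, 3 higher (S100g, Trpv6 and Vdr) and 1 lower. Cyp24a1 was not listed in any library, and Cyp27b1, with 1 read on day 7 and 3 on day 3, was under the read minimum. The lower one was Atp2b1, a plasma membrane calcium pump gene, at 26.96 RPKM on day 7 and 29.1 on day 3 (ratio 0.926, interval 0.866 to 0.991).

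Several epithelial genes that were low on day 3 were higher on day 7 and still under the control. Mptx1, a mucosal pentraxin gene that stands in the goblet cell list, had 13.3 RPKM on day 7 and 1.70 on day 3 (ratio 7.80, interval 4.25 to 15.7), against 1804 in the control. The gasdermin C genes, pore-forming proteins of surface epithelium with near-identical copies, were all 4 higher, in a list chosen after the values were seen. Gsdmc4 had 143 RPKM on day 7 and 59.1 on day 3, and 346 in the control, and Gsdmc2 55.5 RPKM on day 7 and 26.4 on day 3. Cyp2c55, a cytochrome P450 gene of the colon, had 56.1 RPKM on day 7 and 13.2 on day 3 (ratio 4.26, interval 3.68 to 4.94), and 131 in the control. In a list of 10 genes that earlier results of these data had shown to be low after DSS, 7 were higher on day 7 and 3 lower (median log2 ratio 0.53). That list is no independent evidence of its direction.

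Absorptive colonocyte markers as a whole were even, with 9 of 20 higher (median log2 ratio -0.03). Car1, carbonic anhydrase 1, had 668 RPKM on day 7 and 669 on day 3. Slc26a3, the chloride and bicarbonate exchanger, had 110 RPKM on day 7 and 161 on day 3, both under the 469.8 of the control. Slc9a3, the sodium and hydrogen exchanger, had 44.1 RPKM on day 7 and 92.0 on day 3 (ratio 0.479, interval 0.443 to 0.519), with 43.8 in the control. Of 20 ion and water transport genes 9 were higher and 11 lower (median -0.03).

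Goblet cell markers were lower in 11 of 15 used (median log2 ratio -0.20). The member with the largest ratio, Mptx1 (7.80), was higher and is given above. Muc2, the main gel-forming mucin, had 939 RPKM on day 7 and 1238 on day 3, and Clca1 1853 RPKM on day 7 and 1508 on day 3. Enteroendocrine markers had 6 of 13 higher (median -0.24), with Gcg, the precursor of glucagon-like peptides, at 35.6 RPKM on day 7 and 53.2 on day 3. Other members did not go with it: Tph1 had 5.76 RPKM on day 7 and 4.10 on day 3. Chga and Pyy were nearly even, with log2 ratios of 0.06 and 0.08.

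Tuft cell markers were higher in 7 of 10 used (median log2 ratio 0.30), at low levels. Dclk1, a kinase marker of tuft cells, had 1.55 RPKM on day 7 and 0.67 on day 3 (ratio 2.33, interval 1.63 to 3.39), and the taste channel gene Trpm5 1.77 RPKM on day 7 and 0.73 on day 3. Pou2f3, their defining transcription factor, had 14 reads on day 7 and 5 on day 3. Alox5ap, which also serves leukotriene synthesis in myeloid cells, was at 12.8 RPKM on day 7 and 36.3 on day 3.

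Stromal and other cell markers gave the following values. Of 19 fibroblast and matrix genes 11 were higher and 8 lower (median log2 ratio 0.13), and Col1a1, type I collagen, had 18.6 RPKM on day 7 and 16.9 on day 3, with 1.16 in the control. Ctsk, cathepsin K, a collagen-degrading protease, had 8.66 RPKM on day 7 and 0.85 on day 3 (ratio 10.2, interval 5.50 to 21.2). All 6 smooth muscle markers used (of 10) were higher (median 0.63), with summed RPKM of 32.0 on day 7 and 22.3 on day 3. The counting intervals of Myh11, Des, Actg2 and Tagln include 1, and those of Acta2 and Mylk do not. Of 10 endothelial markers 3 were higher (median -0.25), and of 7 mast cell and eosinophil markers used 5 (median 0.33, and -0.34 with at least 50 reads over the pair). Matrix metalloproteinases and their inhibitors had 7 of 15 higher (median -0.02), and genes of the prostaglandin pathway 7 of 14 used (median 0.01). Of 10 adipocyte markers 3 were used, 1 higher and 2 lower (median -0.29). Among them Adipoq, Cfd, Plin1 and Lep had 0 reads in both libraries, Fabp4 had 1 read on day 7 and 9 on day 3 (ratio 0.118, interval 0.0027 to 0.853), and Cidec had 57 reads on day 7 and 74 on day 3. Of 10 enteric neuron and glia markers 2 were used: Ret had 608 reads on day 7 and 721 on day 3, and Uchl1 had 11 reads on day 7 and 3 on day 3 (ratio 3.90, interval 1.03 to 21.8). Sox10 and Gfap had 0 reads in both. The part of these cells in the results above was not tested.

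Squamous epithelium markers, of a kind found at the anus, were low, with summed RPKM of 18.3 on day 7 and 9.26 on day 3. Of 14 listed 7 were used, 5 higher and 2 lower, 3 of them by 2-fold or more. Krt14, a basal keratin, had 10.3 RPKM on day 7 and 2.37 on day 3 (ratio 4.35, interval 2.99 to 6.48). The part of this tissue in the other results was not tested. Krt5, its partner, had 16 reads on day 7 and 0 on day 3. That is 5.67-fold higher when the 0 is set to the floor of 3 reads, and the counting interval runs from 4.10 without an upper limit. Krt6a had 16 reads on day 7 and 4 on day 3. Another pair of genes used had 0 reads on one side and were named after their values were seen. Tmprss11g, a membrane serine protease gene, had 10 reads on day 7 and 0 on day 3, 3.55-fold higher with the same floor. Epgn, the growth factor epigen, had 0 reads on day 7 and 10 on day 3, 3.13-fold lower with the same floor. Markers of red cells and platelets, a list also chosen after the values were seen, were higher in 8 of 9 used (median log2 ratio 0.67). Among the higher ones, the counting intervals of Hbb-bs, Hba-a1, Hba-a2, Alas2 and Itga2b include 1. Ppbp, a platelet chemokine, had 62 reads on day 7 and 6 on day 3 (ratio 10.99, interval 4.77 to 31.1). The lower one was Pf4, also a platelet chemokine, with 7 reads on day 7 and 14 on day 3 (ratio 0.532, interval 0.182 to 1.41).

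Metabolic and junction genes differed little in size, with none of the medians beyond 0.20 in log2 ratio and 1 gene, Cyp2c55, past 2-fold. Respiratory chain genes were lower in 20 of 21 (median -0.20), and Cox5b had 455 RPKM on day 7 and 560 on day 3. Genes of butyrate uptake and fatty acid oxidation had 8 of 20 higher (median -0.03), cholesterol genes 8 of 19 (median -0.05) and NRF2 targets of the oxidative stress response 8 of 19 used (median -0.05). Hypoxia and glycolysis genes had 5 of 20 higher (median -0.16), xenobiotic metabolism genes 8 of 17 used (median -0.08) and tight junction genes 14 of 16 used (median 0.10).

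The same interval was sampled in the PhIP/DSS arm by 2 other libraries, so the ratios of the arms share no library. There 959 of 13539 genes (7.08%) were at least 2-fold higher on day 7 and 192 (1.42%) at least 2-fold lower, with 53.0% above and 47.0% below a ratio of 1. Over the 13213 genes used in both arms the log2 ratios had a Pearson correlation of 0.15 and a Spearman correlation of 0.21, across genes, which are not independent replicates. Of the 362 of these genes at least 2-fold higher in DSS, 296 (81.8%) were above a ratio of 1 in PhIP/DSS and 99 (27.3%) at least 2-fold higher. Of the 233 at least 2-fold lower in DSS, 85 (36.5%) were below 1 in PhIP/DSS, 21 (9.01%) at least 2-fold lower and 63 at least 2-fold higher. Of the 362, 8 were at least 2-fold lower in PhIP/DSS. The difference between the arms was not tested.

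Some groups went the same way in both. Clu had 395 RPKM on day 7 and 54.5 on day 3 in PhIP/DSS, Reg3b 3.14 RPKM on day 7 and 37.1 on day 3, and Hspa1b 5.38 RPKM on day 7 and 28.2 on day 3. MHC class II genes were higher in 10 of 10 (median log2 ratio 1.63) and chaperones lower in 20 of 21 used (median -0.29). Neutrophil markers went the other way, with 15 of 17 used higher on day 7 and a median of 1.21, from lower levels. S100a9 had 31.7 RPKM on day 7 and 14.4 on day 3 in PhIP/DSS, both far under the 236 RPKM on day 7 and 583 on day 3 in DSS. Tfrc, 3.81-fold lower on day 7 in DSS, had 31.8 RPKM on day 7 and 37.7 on day 3 in PhIP/DSS.

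**Figure D5:**
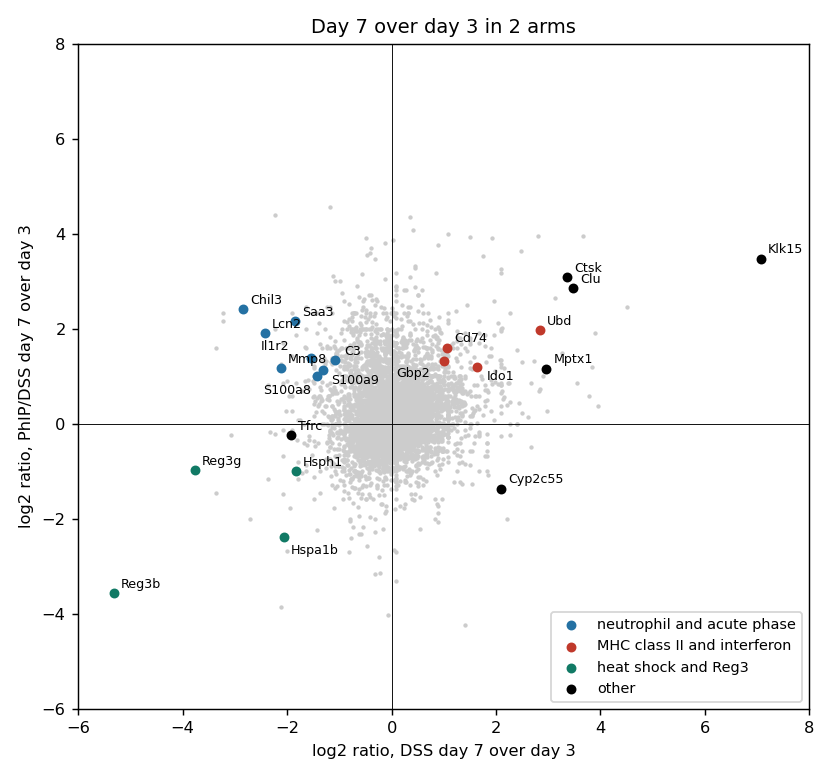
Log2 ratio of day 7 over day 3 in the PhIP/DSS arm (vertical axis) against the DSS arm (horizontal axis) for the 13213 genes used in both, with some genes named. Neutrophil and acute phase genes such as Lcn2 (-2.43 in DSS and 1.91 in PhIP/DSS) lie at the upper left, and class II and interferon genes at the upper right.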

How the data were processed

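RNA from scraped colon epithelium, pooled from 3 mice per library, was enriched for polyadenylated RNA and sequenced on an Illumina HiSeq instrument, per the labels' protocols. The deposited tables give, per the file headers, counts of uniquely mapped reads per gene and RPKM values made by the authors from them. Recomputing RPKM from the reads, the stated length and the library total gave the deposited values to within a relative deviation of 7.84e-14. The submitters' processing notes name the mm10 build and FastQC. Aligner, counting tool and strand setting were not given in the sources used here, so overlapping and antisense genes and near-identical copies are uncertain. Days come from the sample labels, since the day codes in the table names differ from them.

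The tables were joined on gene ID, with a missing gene at 0 reads. For 16 genes the stated length differed between the 2 libraries, which touches their RPKM only. Symbols and positions came from RefSeq GRCm38.p6, the assembly that mm10 also names. A symbol was found for 17983 genes and none for 53, with no more than 0.178% of reads in any library. Genes with at least 10 reads over the pair were used, and ratios are of reads scaled to the library total. A count of 0 was set to a floor of 3 reads. The 95% interval of a ratio is the exact conditional binomial (Clopper-Pearson) one. It was checked on simulated counts that carried counting error only. That check bears on the computation and not on differences between mice or pools. DSS day 7 and DSS day 3 had 1 library each, so no test was made. With 1 library per side a gene was called when its ratio was 2-fold or more in either direction.

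Named genes were the 12 with the highest and the 12 with the lowest log2 ratio among genes with at least 5 RPKM in 1 of the 2 libraries, key members of the lists, the 3 members of each list with the largest absolute ratio, and the 5 most abundant genes of each library. Other members are named as examples, chosen after their values were seen. The comparison, its members and the 39 gene lists were chosen with earlier results of these data known, and 6 further lists (heat shock, red cell and platelet, gasdermin C, iron, glucocorticoid, vitamin D) after the values had been seen. The alternatives were TMM factors (edgeR 4.0.16, R 4.3.3), median-of-ratios factors, other read minimums, 0.5 reads added, RPKM ratios, a 4-fold threshold and the counting interval as criterion. Python 3.11.15 with pandas 2.3.3, NumPy 2.4.6, SciPy 1.17.1 and matplotlib 3.10.9 was used.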

Additional observations from a re-analysis of the deposited data

Results flagged for a closer look

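The named genes below differed at least 2-fold between day 7 and day 3 in both arms, in opposite directions. They are 10 of the 210 named genes used in both arms, some of which were named for their high or low DSS ratios. Over all 13213 genes used in both arms, 63 were at least 2-fold lower in DSS and higher in PhIP/DSS, and 8 the other way. Each arm had 1 library per day, and the difference between the arms was not tested. Values are log2 ratios of day 7 over day 3. Of the 10, 9 were lower on day 7 in DSS and higher on day 7 in PhIP/DSS. Chil3 stood at -2.84 in DSS and 2.42 in PhIP/DSS, where it had 16 reads on day 7 and 3 on day 3 (ratio 5.35, interval 1.53 to 28.6), and Lcn2 at -2.43 in DSS and 1.91 in PhIP/DSS. The collagenase gene Mmp8 stood at -2.12 in DSS and 1.17 in PhIP/DSS, where it had 9 reads on day 7 and 4 on day 3 and the counting interval of the ratio, 0.630 to 10.03, includes 1. Saa3 stood at -1.86 in DSS and 2.17 in PhIP/DSS, and Il1r2, the decoy receptor of interleukin-1, at -1.54 in DSS and 1.40 in PhIP/DSS. The calprotectin genes stood at -1.43 in DSS and 1.00 in PhIP/DSS for S100a8, and at -1.31 in DSS and 1.14 in PhIP/DSS for S100a9. The T cell gene Cd2, with 7 reads on day 7 and 18 on day 3 in DSS, stood at -1.27 in DSS and 1.25 in PhIP/DSS, with 19 reads on day 7 and 8 on day 3, and its counting intervals of the ratio include 1 in both arms, 0.146 to 1.04 in DSS and 0.995 to 6.29 in PhIP/DSS. C3 stood at -1.08 in DSS and 1.34 in PhIP/DSS. Cyp2c55 had the other pattern, with 2.09 in DSS and -1.36 in PhIP/DSS.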

How the results depend on the processing

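No paired analysis was possible because each group had 1 library. The counts of genes depended on the read minimum and on the criterion. Against 413 higher and 293 lower on day 7, there were 127 higher and 81 lower with at least 50 reads over the pair, 74 higher and 39 lower at a 4-fold threshold, and 1979 higher and 2153 lower when the counting interval had to lie wholly beyond 1. With more than 3 reads in 1 library as the sole limit, 640 were higher and 428 lower. TMM gave 420 higher and 290 lower, 0.5 added reads 402 higher and 261 lower, and median-of-ratios factors and RPKM ratios 413 higher and 293 lower. The scalings shift all genes alike, TMM by 0.0064 in log2, so they bear only on genes next to a ratio of 1 or to the threshold. Of the 221 named genes 33 have fewer than 50 reads over the pair. List medians depended on the 50-read minimum where lists hold genes with few reads. Of 45 medians 31 moved by at most 0.1 in log2 and 14 by more. The sign turned for 4: mast cell and eosinophil markers became -0.34 instead of 0.33, enteric neuron and glia markers -0.16 instead of 0.90, crypt stem cell and Wnt target genes -0.05 instead of 0.03, and the prostaglandin pathway -0.10 instead of 0.01. The median of the vitamin D list became 0.27 instead of 2.06, and that of squamous epithelium markers 0.94 instead of 0.28. That of T and NK cell markers became 0.60 instead of 0.09, and that of tuft cell markers 0.10 instead of 0.30. Depth limits genes with a few reads, such as Il17a, Cryab and Krt5.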
